A study of Sus scrofa with 12 samples.

Results

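The porcine endothelial cell line AOC was compared, gene by gene, with cells at day 12 of a protocol that turns porcine iPS cells towards endothelium (IEC12). The comparison took the 9636 genes, of 19681, that reached 1 FPKM in at least 3 of its libraries, and 6 of the 12 RNA-sequencing libraries analysed here, replicates A, B and C of AOC and replicates A, B and C of IEC12. It asks which functions of mature endothelium were low in the day 12 cells and what was expressed in their place. The other 6 libraries, from day 2 (IEC2) and day 4 (IEC4) of the induction, were read only to follow the same genes in time. AOC is labelled as an endothelial cell line of the pig and as final in time, and the sources used here do not give the vessel or animal it came from. It is a single line in culture, so it stands for mature endothelium only as far as that line does. IEC12 cells were porcine iPS cells plated on Matrigel with the ROCK inhibitor Y27632, given CHIR99021, an activator of WNT signalling, then BMP4, FGF2 and VEGF, and then endothelial growth medium EGM-2 with VEGF. The study lists cells sorted for CD31 as a further group, which is not analysed here, so IEC12 is taken to be the unsorted culture. In these bulk libraries, fewer cells of a type and less RNA per cell cannot be told apart. The 3 libraries of a group are described as biological replicates, with no word on separate passages or animals, so the p-values measure only the spread between these libraries.

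Endothelial cells line the blood vessels. They hold the wall closed with junction proteins such as VE-cadherin, keep blood from clotting, set the tone of the vessel through nitric oxide, prostacyclin and endothelin, and admit leukocytes when inflamed. This identity is kept by ETS family transcription factors such as ERG and FLI1, and VEGF, angiopoietin, Notch and BMP signals shape it during development. The gene lists below follow these roles.

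Each library had 1 value, taken here as FPKM (a fragment count divided by transcript length and library size), for each of 19681 Ensembl pig genes. The FPKM sums ran from 426839 to 441757 per AOC library and from 387726 to 457194 per IEC12 library, and 8357 to 9452 genes reached 1 FPKM. Read numbers are unknown. The depth of each library relative to the geometric mean of the 6, estimated from the commonest ratio of low values, ran from 0.730 in IEC12 replicate A to 1.25 in IEC12 replicate B. IEC12 replicate A stood apart from its group, and the part of its depth and mitochondrial share in the results was not tested. Its correlation with IEC12 replicate C over log2(FPKM + 1) of the genes tested was 0.943, against 0.985 to 0.989 between AOC libraries, and 15.01% of its FPKM sum came from 12 mitochondrial genes, against 9.78% and 7.77% in the other IEC12 libraries and 5.65 to 7.05% in AOC. For genes given with their values below, the value without this library is added where leaving it out ended or made the call or turned the sign. RPS2 and PSME1, which every cell uses, stayed under 1 FPKM in all 12 libraries, so a gene listed at 0 can be one that was not counted.

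Differences were tested with limma on log2(FPKM + 1), for the 9636 genes that reached 1 FPKM in at least 3 of the 6 libraries. A gene near 0 in 1 group passed this filter through the other group alone, which came close to fixing its direction. Log2 fold changes are AOC minus IEC12, so that positive values are higher in AOC. They are given with their standard error (SE), and on this scale they come out too small where values are low. A gene was called when its Benjamini-Hochberg adjusted p-value was under 0.05 and its log2 fold change was above 1 in size. By this rule 1509 genes (15.7%) were higher in AOC and 1970 (20.4%) were higher in IEC12. These shares are the background for the counts of every list below. Without IEC12 replicate A, 1444 and 2118 genes were called. By the stricter limits that the study used for its own comparison (p-value and adjusted p-value under 0.001, log2 fold change above 3), 233 genes (2.42%) were higher in AOC and 250 (2.59%) were higher in IEC12. The 3 libraries of one group all lay above the 3 of the other in 6583 genes (68.3%), which is the background for any gene said not to overlap. The median log2 fold change of all genes tested was -0.18. It was -0.03 after median-of-ratios scaling and -0.29 after scaling to equal totals, so small differences have to be read against this shift. A gene listed at 0 in every library of a group is given with its values and no fold change.

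**Figure D1:**
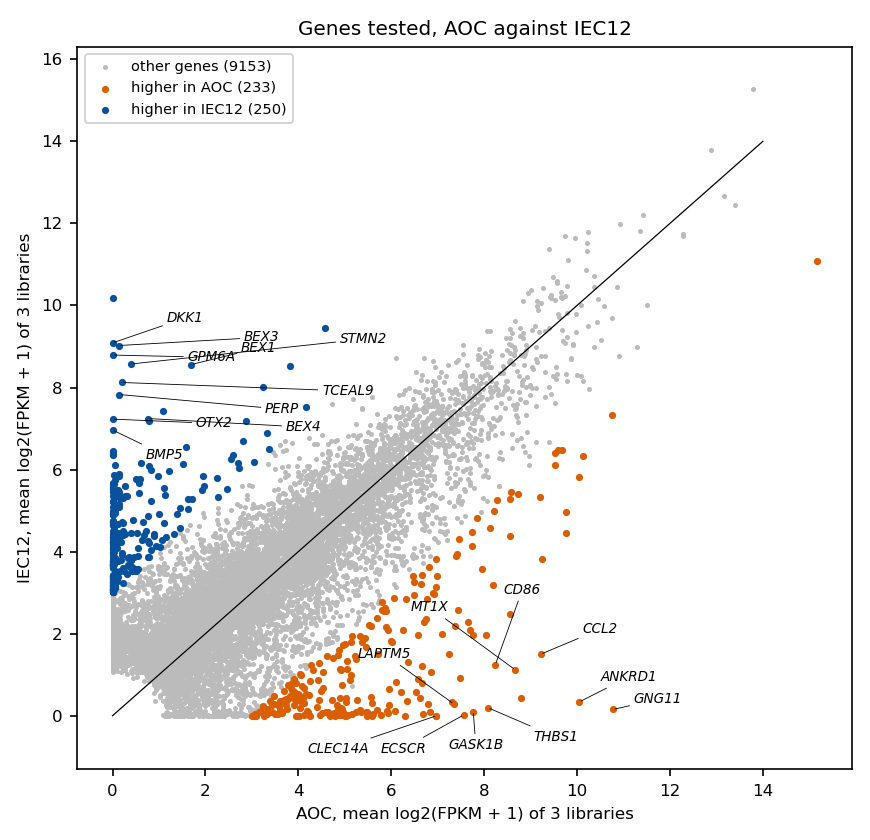
Mean log2(FPKM + 1) of the 3 AOC libraries (horizontal axis) and the 3 IEC12 libraries (vertical axis) for each of the 9636 genes tested, with the 233 genes higher in AOC and the 250 genes higher in IEC12 by the stricter limits in colour and the line of equal level in black. The 10 genes with a symbol that differed most in each direction are named, and most of the coloured genes lie near 0 in one of the groups.

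The label of the day 12 cells was checked against markers of endothelium. Of 10 markers, 8 were found by symbol (VWF and EGFL7 are not analysed here). In AOC, 7 of the 8 reached 1 FPKM in every library, and TIE1 was at 0.526, 0.809 and 0.368 FPKM. In IEC12, 0 of the 8 reached 1 FPKM in any library. The 8 markers summed to 263 to 383 FPKM in AOC and to 0.415 to 0.531 FPKM in IEC12, and CDH5 and TIE1 were listed at 0 in all IEC12 libraries. These 8 markers were thus near 0 in the libraries labelled as induced endothelial cells, while other endothelial genes described below were not. The libraries are called IEC12 or day 12 cells below. The markers of other cell types were read in the same way. In IEC12, no marker of heart muscle passed 0.0312 FPKM, none of smooth muscle 0.509 and none of endoderm 0.190. The 6 markers of neurons summed to 374 to 401 FPKM in IEC12 and 7.11 to 10.5 in AOC, but nearly all of it came from STMN2, with ELAVL3 and TUBB3 near 0. The 4 markers of epithelium that were found summed to 4.68 to 16.05 FPKM in IEC12, mostly from KRT8, and to at most 0.0509 in AOC. The 5 blood markers summed to 3.13 to 4.48 FPKM in IEC12 and to 135 to 191 in AOC, the latter from LAPTM5, with PTPRC listed at 0. Of the 5 fibroblast markers, 1 reached 1 FPKM in every IEC12 library, and together they summed to 2.31 to 4.76 FPKM in IEC12 and 13.8 to 17.2 in AOC. Of 5 markers of pluripotent cells 2 were found, which is too few to judge that cell type.

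Most tested genes of the endothelial function lists had lower RNA levels in IEC12 than in AOC. The 9 lists of endothelial function held 309 genes in all, of which 264 were found by symbol and 183 were tested. Of these, 123 (67.2%) were higher in AOC, 17 (9.29%) were higher in IEC12 and 43 were not called, where 15.7% and 20.4% of all genes tested were. Among the 169 that reached 1 FPKM in every AOC library, the mean of IEC12 was under 1% of the mean of AOC for 41 genes, between 1 and 10% for 38, between 10 and 50% for 47, and 50% or more for 43. Of all 7983 genes tested that reached 1 FPKM in every AOC library, 2.17% were under 1% and 77.7% were at 50% or more.

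**Figure D2:**
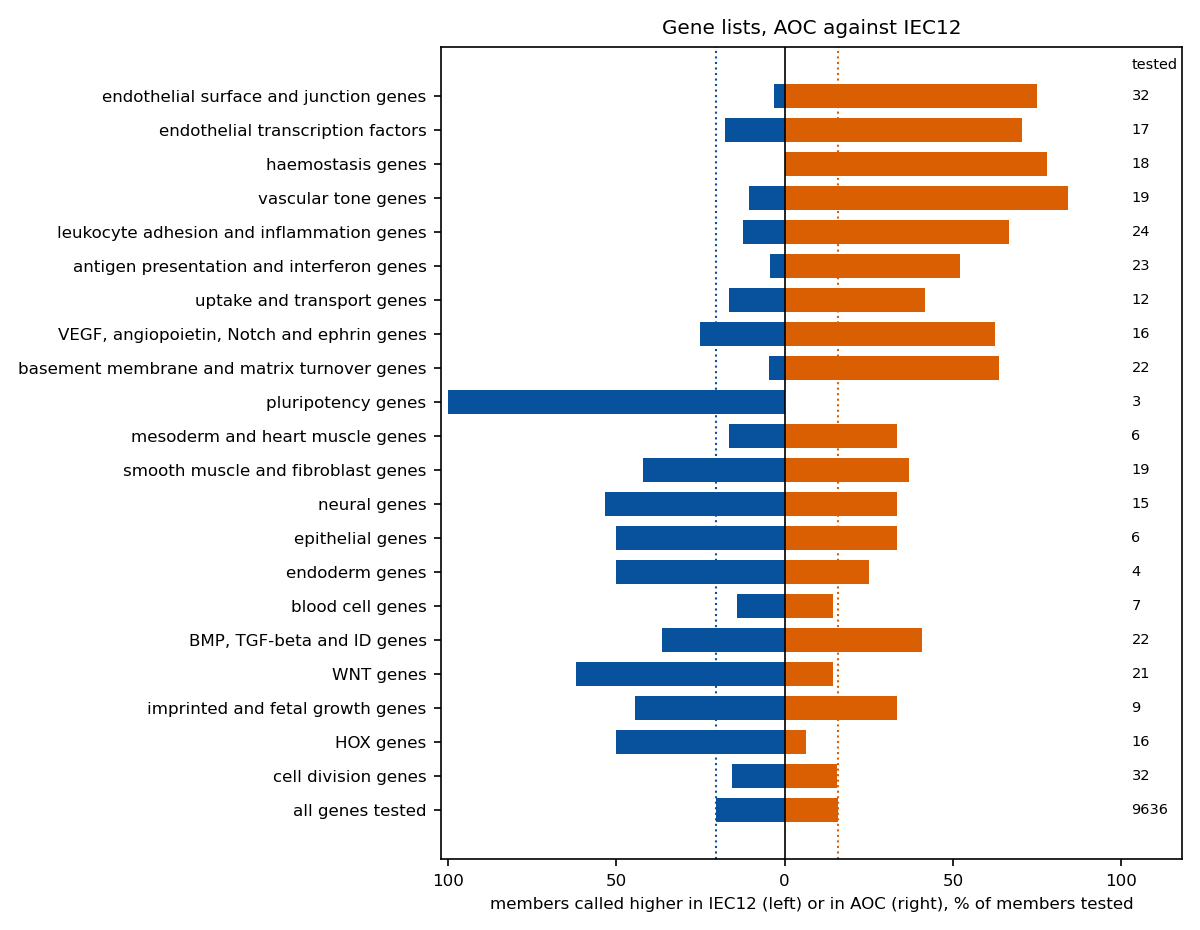
Share of the tested members of each list that were called higher in AOC (orange, to the right) or higher in IEC12 (blue, to the left), in percent, with the number tested at the right edge. Dotted lines mark the shares over all 9636 genes, 15.7% and 20.4%, and the 9 lists of endothelial function at the top reach from 41.7 to 84.2% on the AOC side.

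Surface and junction genes, by which endothelium is recognised, were mostly lower in IEC12 than in AOC. Of 44 listed, 39 were found and 32 tested, of which 24 were higher in AOC, 1 was higher in IEC12 and 7 were not called (median log2 fold change 2.06). CDH5, which encodes VE-cadherin, the adhesion molecule of endothelial junctions (chromosome 6, 27108560 to 27142145 of Sscrofa11.1), was at 137, 134 and 103.02 FPKM in the AOC libraries and was listed at 0 in all 3 IEC12 libraries (adjusted p = 6.42e-07). PECAM1, the CD31 protein by which endothelial cells are sorted (chromosome 12, 14667643 to 14723296), was at 119, 131 and 91.7 FPKM in AOC and 0.0197, 0.0609 and 0.105 in IEC12, with a log2 fold change of 6.74 and an SE of 0.16 (adjusted p = 9.02e-07). ECSCR, an endothelial surface receptor, was at 192, 173 and 198 FPKM in AOC and 0, 0.0372 and 0 in IEC12, with a log2 fold change of 7.54 and an SE of 0.11 (adjusted p = 2.5e-07). CLEC14A, an endothelial C-type lectin, was at 137, 146 and 97.0 FPKM in AOC and was listed at 0 in all IEC12 libraries (adjusted p = 1.05e-06). These 4 genes were named for the largest differences among members whose groups do not overlap, as 68.3% of all genes tested did not. Their wide separation thus follows from that choice.

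The receptors of vascular growth factors followed. KDR, the main VEGF receptor, was low even in AOC, at 1.32, 1.31 and 1.46 FPKM, and was at 0.0374, 0 and 0 in IEC12, with a log2 fold change of 1.22 and an SE of 0.08 (adjusted p = 2.54e-05). FLT1, the other VEGF receptor on the list that was tested, was at 2.49, 2.22 and 2.19 FPKM in AOC and 0, 0.0230 and 0.0306 in IEC12. TEK, the receptor of angiopoietins, was at 3.26, 8.34 and 5.26 FPKM in AOC and 0.00755, 0 and 0.0145 in IEC12, with a log2 fold change of 2.64 and an SE of 0.27 (adjusted p = 0.000216). Of the 3 receptors TEK spread most between AOC libraries, and the lowest of them still lay above every IEC12 library. Further members at 0 in all IEC12 libraries included TM4SF18 (39.0, 48.2 and 43.4 FPKM in AOC) and CD93 (17.98, 19.4 and 8.34 FPKM). EMCN, a sialomucin of the endothelial surface, was at 23.0, 36.3 and 31.2 FPKM in AOC and 0, 0.0335 and 0.0279 in IEC12, and ESAM, a tight junction adhesion molecule, was at 68.5, 75.7 and 39.5 FPKM in AOC and 0.122, 0.0353 and 0.117 in IEC12. Genes of the caveolae, membrane pits that are dense in endothelium, were lower in IEC12, by unlike amounts in the 4 members given here. CAV1, the main caveolin, was at 513, 489.7 and 499 FPKM in AOC and 82.7, 75.5 and 79.8 in IEC12, or 15.9% of the AOC mean (log2 fold change 2.64, SE 0.08, adjusted p = 1.9e-06). CAV2, its partner, was at 170.3, 176 and 178 FPKM in AOC and 20.2, 18.1 and 17.95 in IEC12 (log2 fold change 3.15, SE 0.09, adjusted p = 1.63e-06). The cavins, which coat the pits, were under 1 FPKM in every IEC12 library. CAVIN2 was at 70.3, 67.4 and 48.5 FPKM in AOC and 0.473, 0.495 and 0.774 in IEC12, or 0.936% of the AOC mean (log2 fold change 5.30, SE 0.18, adjusted p = 2.7e-06), and CAVIN1, low in AOC as well, was at 2.71, 2.22 and 1.31 and 0.0102, 0.0531 and 0.0392 FPKM in the same order (log2 fold change 1.55, SE 0.18, adjusted p = 0.00036).

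The genes of the adrenomedullin receptor had lower means in IEC12 as well, but differed by less than the genes above. RAMP2, which turns the receptor CALCRL into a receptor for adrenomedullin, was at 42.4, 66.8 and 60.4 FPKM in AOC and 31.0, 38.4 and 23.5 in IEC12. Its log2 fold change was 0.85 (95% interval 0.29 to 1.41, adjusted p = 0.0177), and it was not called, although the groups did not overlap. It was called after median-of-ratios scaling and without AOC replicate A or IEC12 replicate B (1.01, 1.04 and 1.01). At day 2 it had been at 0, 0.247 and 0 FPKM and at day 4 at 0.934, 0.528 and 0.981. CALCRL was called, by a small margin, at 8.02, 22.04 and 21.6 FPKM in AOC and 7.98, 6.58 and 6.47 in IEC12 (log2 fold change 1.07, SE 0.37, adjusted p = 0.0424). The settings that ended this call included the fit without the expression filter, equal totals (0.96), and leaving out AOC replicate B or C or any 1 IEC12 library, where the log2 fold change ran from 0.84 to 1.15 (the latter without IEC12 replicate A). JAM3, a junction molecule found in many tissues, was at 25.1, 27.7 and 17.4 FPKM in AOC and 16.2, 21.97 and 23.5 in IEC12, with an interval of the difference from -0.35 to 0.69. CYYR1, a cysteine- and tyrosine-rich membrane protein, was at 24.2, 23.99 and 15.5 FPKM in AOC and 5.99, 11.8 and 15.4 in IEC12 (log2 fold change 0.94, adjusted p = 0.0487), and was called after median-of-ratios scaling and without AOC replicate C or IEC12 replicate C (1.102, 1.14 and 1.21). The member higher in IEC12 was PALMD, a cytoskeletal protein, at 3.14, 3.39 and 2.17 FPKM in AOC and 6.09, 7.26 and 7.99 in IEC12 (log2 fold change -1.06, SE 0.18, adjusted p = 0.00219). That call was lost after median-of-ratios scaling, at -0.93, and without AOC replicate C or IEC12 replicate C, at -0.92 and -0.99.

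**Figure D3:**
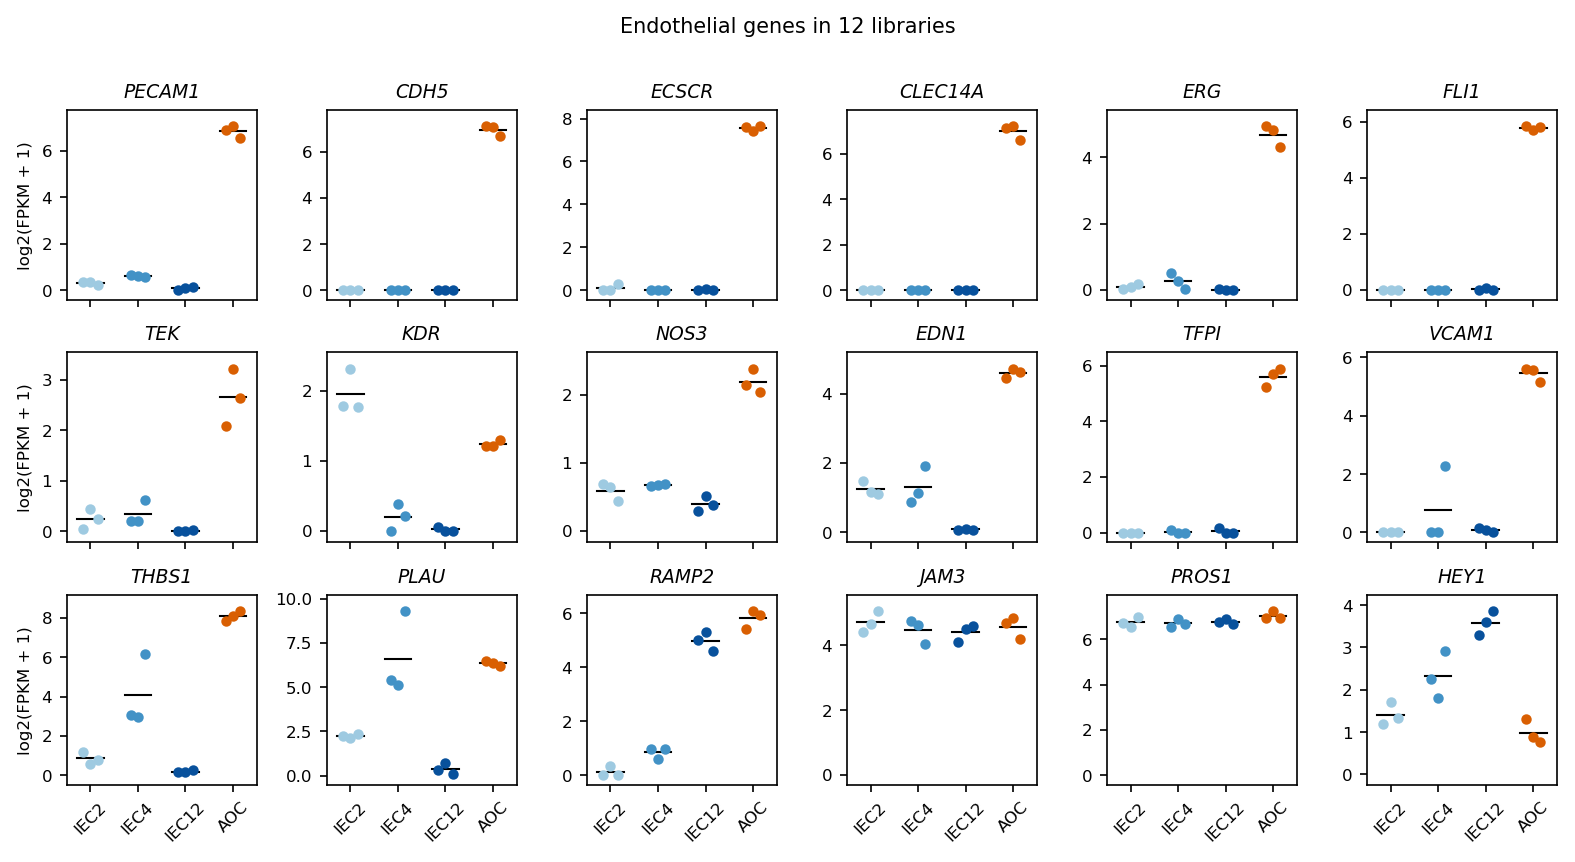
Level of 18 endothelial genes, as log2(FPKM + 1), in each of the 12 libraries by group, with points for libraries and a bar for the mean of each group of 3. From PECAM1 to PLAU every IEC12 library lies below every AOC library, RAMP2 reaches 23.5 to 38.4 FPKM at day 12, JAM3 and PROS1 lie at like levels in both groups, and HEY1 is higher in IEC12.

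The transcription factors that hold endothelial identity were mostly on the AOC side. Of 31 listed, 27 were found and 17 tested, of which 12 were higher in AOC, 3 higher in IEC12 and 2 not called (median 1.62). FLI1, an ETS factor of endothelium and blood, was at 56.1, 50.7 and 55.1 FPKM in AOC and 0, 0.0455 and 0 in IEC12, with a log2 fold change of 5.76 and an SE of 0.12 (adjusted p = 6.15e-07). ERG, the ETS factor most specific to endothelium, was at 29.7, 27.1 and 18.7 FPKM in AOC and 0.00941, 0 and 0 in IEC12, with a log2 fold change of 4.68 and an SE of 0.19 (adjusted p = 4.49e-06). BCL6B, an endothelial repressor, was at 10.2, 11.4 and 6.40 FPKM in AOC and 0.0374, 0.0360 and 0 in IEC12 (log2 fold change 3.30, SE 0.21, adjusted p = 2.34e-05). LYL1, a bHLH factor of blood and endothelium, was at 2.38, 2.93 and 1.80 FPKM in AOC and listed at 0 in all IEC12 libraries. ETV2, which starts the endothelial programme in embryos, stayed under 1 FPKM in all 6 libraries, at 0.647, 0.928 and 0.753 in AOC and 0.116, 0.167 and 0.259 in IEC12, and was not tested.

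The Notch targets HEY2 and HEY1 stood on opposite sides, and a factor of veins was higher in IEC12. HES1, from the list of VEGF, angiopoietin, Notch and ephrin genes, was not called. It was at 2.50, 4.92 and 4.15 FPKM in AOC and 2.87, 3.27 and 3.02 in IEC12 (interval -0.28 to 0.74). HEY2, a Notch-responsive repressor of arterial cells, was at 19.1, 17.3 and 14.5 FPKM in AOC and 1.11, 1.103 and 1.59 in IEC12 (log2 fold change 2.984, SE 0.16, adjusted p = 1.34e-05). Its relative HEY1 showed the reverse, at 1.46, 0.833 and 0.707 FPKM in AOC and 8.89, 11.05 and 13.5 in IEC12 (log2 fold change -2.60, SE 0.21, adjusted p = 7.31e-05). NR2F2, the nuclear receptor COUP-TFII of veins and of mesenchyme, was at 0.565, 0.577 and 0.507 FPKM in AOC and 5.32, 6.43 and 5.84 in IEC12 (log2 fold change -2.14, SE 0.12, adjusted p = 1.42e-05). MEF2C, a MADS-box factor of muscle, nerve and vessels, was near 0 in AOC, at 0.0182, 0.00891 and 0.00442 FPKM, and at 4.94, 4.72 and 5.96 in IEC12 (log2 fold change -2.61, SE 0.12, adjusted p = 6.24e-06). FOXO1, a target of insulin and growth factor signals, was at 8.87, 9.27 and 9.33 FPKM in AOC and 10.8, 8.35 and 9.05 in IEC12, with an interval of the difference from -0.35 to 0.29. Its sign flipped to 0.12 after median-of-ratios scaling and to 0.067 without IEC12 replicate A. GATA2, a zinc finger factor of blood and endothelial progenitors, was at 2.11, 2.05 and 1.76 FPKM in AOC and 2.002, 4.21 and 6.59 in IEC12 (log2 fold change -0.73, adjusted p = 0.0949), and it was higher in IEC12 by the call rule when IEC12 replicate A, its lowest library, was left out, at -1.08.

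Haemostasis genes had a median of 3.61, the highest of the lists, although with a pseudocount of 0.1 that of the surface and junction genes was higher (4.10 against 3.70). Of 24 listed, 22 were found and 18 tested, with 14 higher in AOC, 0 higher in IEC12 and 4 not called. At an unadjusted p under 0.05 in limma, 14 were higher in AOC and 0 in IEC12, and the count called higher in IEC12 was 0 under each of the 13 alternatives as well. THBS1, thrombospondin, was at 229, 268 and 319.8 FPKM in AOC and 0.127, 0.118 and 0.194 in IEC12, with a log2 fold change of 7.88 and an SE of 0.15 (adjusted p = 4.38e-07). TFPI, the inhibitor of the tissue factor pathway, was at 36.8, 51.4 and 58.5 FPKM in AOC and 0.110, 0 and 0 in IEC12, with a log2 fold change of 5.57 and an SE of 0.19 (adjusted p = 2.83e-06). PROCR, the endothelial receptor of protein C, was at 29.2, 24.2 and 19.3 FPKM in AOC and 0.0310, 0.0627 and 0.0795 FPKM in IEC12. Both of these anticoagulant genes were thus near 0 in every day 12 library.

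Fibrinolysis and lipid-binding genes of the list followed. PLAU, the urokinase, was at 87.0, 80.6 and 72.7 FPKM in AOC and 0.235, 0.638 and 0.0464 in IEC12, with a log2 fold change of 5.98 and an SE of 0.19 (adjusted p = 2.13e-06). ANXA5, which covers exposed phosphatidylserine, was at 1127, 1119 and 1097 FPKM in AOC and 78.1, 77.5 and 83.1 in IEC12 (log2 fold change 3.79, SE 0.08, adjusted p = 6.04e-07). The 4 members not called were PROS1, F2R, PLAT and F8. PROS1, the protein S cofactor of protein C, was at 124, 149.95 and 122 FPKM in AOC and 108, 117.9 and 99.99 in IEC12, with an interval of the difference from -0.01 to 0.56. F2R, the thrombin receptor PAR1, was at 14.9, 16.33 and 13.4 FPKM in AOC and 21.3, 17.6 and 12.9 in IEC12 (interval -0.65 to 0.29). PLAT, the tissue plasminogen activator, was at 19.4, 35.3 and 15.1 FPKM in AOC and 6.73, 19.02 and 19.4 in IEC12 (interval -0.47 to 1.752). F8, the clotting factor that vessel walls make, was at 8.92, 7.29 and 5.23 FPKM in AOC and 1.87, 4.44 and 6.14 in IEC12 (interval -0.13 to 1.60), and it was called higher in AOC without IEC12 replicate C (1.02).

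Vascular tone genes had the largest share of members higher in AOC among the 9 lists. Of 29 listed, 28 were found and 19 tested, with 16 higher in AOC (84.2%), 2 higher in IEC12 and 1 not called (median 1.80). NOS3, the endothelial nitric oxide synthase, was at 3.41, 4.22 and 3.11 FPKM in AOC and 0.219, 0.420 and 0.294 in IEC12, with a log2 fold change of 1.80 and an SE of 0.13 (adjusted p = 4.72e-05). NOSTRIN, which moves NOS3 away from the cell membrane, was at 17.2, 18.8 and 16.05 FPKM in AOC and 0, 0.162 and 0.103 FPKM in IEC12 (log2 fold change 4.08, SE 0.13, adjusted p = 2.35e-06). PTGIS, the prostacyclin synthase, was at 20.01, 16.7 and 15.2 FPKM in AOC and 0.0108, 0.00625 and 0.0762 FPKM in IEC12 (log2 fold change 4.14, SE 0.15, adjusted p = 2.83e-06). NOS3 and PTGIS make relaxing signals of the vessel wall. EDN1, the constrictor endothelin, was at 20.7, 25.3 and 23.5 FPKM in AOC and 0.0470, 0.0724 and 0.0502 in IEC12 (log2 fold change 4.51, SE 0.13, adjusted p = 1.65e-06). ADM, adrenomedullin, was at 111, 129 and 83.5 FPKM in AOC and 2.34, 4.56 and 6.18 in IEC12 (log2 fold change 4.39, SE 0.31, adjusted p = 3.62e-05), and it had been at 165, 70.2 and 83.8 FPKM at day 2. So the ligand was low at day 12, the stage at which its receptor subunit RAMP2 was highest among the 3 stages.

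The 2 members higher in IEC12 were receptors. EDNRB, the endothelin B receptor, was listed at 0 in all AOC libraries and was at 11.3, 11.9 and 6.38 FPKM in IEC12 (adjusted p = 3.12e-05), after 34.2, 24.4 and 20.8 FPKM at day 4. AGTR1, the angiotensin II receptor of vessel and kidney, was at 0.143, 0 and 0.0347 FPKM in AOC and 3.21, 2.51 and 3.36 in IEC12 (log2 fold change -1.92, SE 0.12, adjusted p = 2.58e-05). DDAH2, which breaks down inhibitors of nitric oxide synthase, was not called, at 2.29, 2.79 and 1.45 FPKM in AOC and 0.901, 3.89 and 4.85 in IEC12, and its sign turned to 0.036 without IEC12 replicate C.

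Leukocyte adhesion and inflammation genes were mostly low in IEC12, while NFKBIA and MYD88 were present. Of 37 listed, 33 were found and 24 tested, with 16 higher in AOC, 3 higher in IEC12 and 5 not called (median 1.57). CCL2, the chemokine that draws monocytes, was at 578, 504 and 719 FPKM in AOC and 1.97, 1.40 and 2.18 in IEC12, with a log2 fold change of 7.72 and an SE of 0.17 (adjusted p = 7.45e-07). CXCL8, which draws neutrophils, was at 109.6, 71.3 and 127 FPKM in AOC and 1.52, 0.484 and 0.439 in IEC12 (log2 fold change 5.84, SE 0.30, adjusted p = 1.07e-05). VCAM1, the ligand of leukocyte integrins, was at 47.9, 46.9 and 34.8 FPKM in AOC and 0.114, 0.0660 and 0 FPKM in IEC12 (log2 fold change 5.37, SE 0.17, adjusted p = 1.9e-06). TLR4, the receptor for bacterial lipopolysaccharide, was at 46.9, 51.6 and 42.3 FPKM in AOC and 0.147, 0.177 and 0.439 FPKM in IEC12 (log2 fold change 5.26, SE 0.15, adjusted p = 1.63e-06). SELP, the P-selectin on which leukocytes roll, was lower in IEC12 and yet clearly present, at 65.1, 60.9 and 50.04 FPKM in AOC and 3.68, 6.58 and 4.79 in IEC12 (log2 fold change 3.33, SE 0.20, adjusted p = 2.11e-05). It had been listed at 0 in all IEC2 libraries and at 0, 0.0975 and 0 FPKM at day 4.

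The 3 members higher in IEC12 were CXCL12, IL6 and TNFAIP3. CXCL12, the ligand of CXCR4, was at 0.140, 0.0242 and 0.144 FPKM in AOC and 3.69, 3.70 and 5.31 in IEC12 (log2 fold change -2.23, SE 0.15, adjusted p = 3.17e-05). IL6 was at 0.562, 0.549 and 0.928 FPKM in AOC and 4.16, 4.03 and 3.34 FPKM in IEC12 (log2 fold change -1.53, SE 0.14, adjusted p = 0.000137). TNFAIP3, the A20 brake on NF-kappa B, was at 6.23, 4.68 and 3.84 FPKM in AOC and 14.6, 11.5 and 9.17 FPKM in IEC12 (log2 fold change -1.11, SE 0.22, adjusted p = 0.00468), a call that was lost after median-of-ratios scaling (-0.96), with all 12 libraries in the fit, and without AOC replicate C or IEC12 replicate A (-0.97 and -0.95). NFKBIA, the inhibitor of NF-kappa B, was at 78.0, 56.0 and 50.1 FPKM in AOC and 39.4, 52.3 and 58.6 in IEC12, with an interval of the difference from -0.23 to 0.79. MYD88, the adaptor of Toll-like receptors, was at 17.8, 15.9 and 12.2 FPKM in AOC and 5.23, 10.2 and 11.7 in IEC12 (log2 fold change 0.75, adjusted p = 0.0649).

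Antigen presentation and interferon genes were divided. Of 47 listed, 34 were found and 23 tested, with 12 higher in AOC, 1 higher in IEC12 and 10 not called (median 1.09). B2M and the class I genes are not analysed here. The interferon-induced ISG15 was at 135, 136 and 186 FPKM in AOC and 1.40, 2.08 and 2.03 in IEC12, with a log2 fold change of 5.75 and an SE of 0.18 (adjusted p = 1.88e-06). IFI6 was at 41.8, 49.0 and 38.8 FPKM in AOC and 2.28, 2.39 and 1.96 FPKM in IEC12 (log2 fold change 3.78, SE 0.14, adjusted p = 3.22e-06), and BST2, which tethers viruses, was at 28.8, 39.3 and 26.4 FPKM in AOC and 2.25, 2.49 and 2.36 FPKM in IEC12 (log2 fold change 3.25, SE 0.17, adjusted p = 1.2e-05). MX1, another gene of the same response, was not called. It was at 16.5, 16.31 and 11.3 FPKM in AOC and 15.5, 22.4 and 26.8 in IEC12 (interval -1.08 to 0.06). The class II chaperone gene SLA-DMB was at 10.02, 13.5 and 6.10 FPKM in AOC and 13.9, 24.3 and 13.5 in IEC12 (log2 fold change -0.75, adjusted p = 0.0861). GBP2, an interferon-induced GTPase, was higher in IEC12, at 1.07, 1.78 and 1.20 FPKM in AOC and 3.32, 5.01 and 3.84 in IEC12 (log2 fold change -1.103, SE 0.18, adjusted p = 0.00203), and its call was lost after median-of-ratios scaling (-0.99) and without IEC12 replicate B (-0.97). IFIT2, another interferon-induced gene, was at 9.33, 7.43 and 6.88 FPKM in AOC and 0.110, 0.122 and 0.194 in IEC12 (log2 fold change 2.95, adjusted p = 8.1e-06).

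Uptake and transport genes were the endothelial list nearest to balance. Of 24 listed, 17 were found and 12 tested, with 5 higher in AOC, 2 higher in IEC12 and 5 not called (median 0.77). That is 41.7% and 16.7%, against 15.7% and 20.4% of all genes tested. Without IEC12 replicate A, 4 were higher in IEC12, among them CD320, the receptor that takes up vitamin B12 (-1.02, against -0.86 with it). LIPG, the endothelial lipase, was at 153, 166 and 153 FPKM in AOC and 0.233, 0.381 and 0.185 in IEC12, with a log2 fold change of 6.96 and an SE of 0.12 (adjusted p = 3.41e-07). LPL, the lipoprotein lipase that other tissues make, was the reverse, listed at 0 in all AOC libraries and at 7.48, 9.69 and 8.83 FPKM in IEC12 (adjusted p = 3.99e-06). VLDLR, a receptor of lipoproteins, was at 53.4, 59.2 and 43.9 FPKM in AOC and 6.503, 5.43 and 5.37 in IEC12 (log2 fold change 2.97, SE 0.15, adjusted p = 9.71e-06). FABP5, a fatty acid binding protein, was higher in IEC12, at 35.4, 30.4 and 36.8 FPKM in AOC and 98.6, 101.8 and 86.2 in IEC12 (log2 fold change -1.46, SE 0.12, adjusted p = 7.21e-05). TFRC, the transferrin receptor, was at 20.2, 53.3 and 55.9 FPKM in AOC and 62.7, 53.5 and 54.7 in IEC12 and was not called (interval -1.42 to 0.38). SCARF1, a scavenger receptor, was at 3.15, 2.99 and 2.13 FPKM in AOC and 0.0421, 0.0292 and 0.0324 in IEC12 (log2 fold change 1.85, adjusted p = 3.78e-05).

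Among VEGF, angiopoietin, Notch and ephrin genes, ligands and receptors differed in a mixed way. Of 36 listed, 29 were found and 16 tested, with 10 higher in AOC, 4 higher in IEC12 and 2 not called (median 1.31). ESM1, a proteoglycan that endothelial tip cells secrete, was at 191, 193 and 153 FPKM in AOC and 0.238, 0.428 and 2.88 in IEC12, with a log2 fold change of 6.56 and an SE of 0.43 (adjusted p = 2.69e-05). ANGPT2 and ANGPT1 lay on opposite sides. ANGPT2, which endothelium itself makes, was at 27.4, 43.7 and 26.2 FPKM in AOC and 0.422, 0.346 and 0.308 in IEC12 (log2 fold change 4.58, SE 0.22, adjusted p = 7.49e-06). ANGPT1, which cells around the vessel make, was at 0.00744, 0.0291 and 0.0722 FPKM in AOC and 1.72, 1.51 and 1.34 in IEC12 (log2 fold change -1.28, SE 0.09, adjusted p = 4.17e-05). CXCR4, the receptor of CXCL12, was at 56.1, 76.0 and 58.3 FPKM in AOC and 2.93, 3.21 and 1.69 in IEC12 (log2 fold change 4.17, SE 0.22, adjusted p = 1.09e-05), opposite to its ligand. EFNA1, an ephrin ligand, was higher in IEC12, at 8.05, 10.1 and 7.51 FPKM in AOC and 31.9, 32.8 and 34.2 in IEC12 (log2 fold change -1.84, SE 0.14, adjusted p = 4.6e-05). DLL4, the Notch ligand of arterial tip cells, was at 0.350, 0.555 and 0.384 FPKM in AOC and listed at 0 in all IEC12 libraries, below the level needed for a test. ADGRL4, an adhesion receptor of endothelium, was at 13.9, 19.2 and 13.3 FPKM in AOC and 0.435, 0.444 and 0.359 in IEC12 (log2 fold change 3.53, adjusted p = 8.33e-06).

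Basement membrane and matrix turnover genes completed the endothelial lists. Of 37 listed, 35 were found and 22 tested, with 14 higher in AOC, 1 higher in IEC12 and 7 not called (median 1.299). NID2, a nidogen that links laminin and collagen IV, was at 23.5, 27.9 and 25.5 FPKM in AOC and 0.309, 0.287 and 0.311 in IEC12, with a log2 fold change of 4.35 and an SE of 0.13 (adjusted p = 1.65e-06). Its relative NID1 was not called, at 8.74, 10.2 and 9.17 FPKM in AOC and 17.3, 15.6 and 12.5 in IEC12 (log2 fold change -0.63, adjusted p = 0.0104). LAMB1, a laminin chain, was at 23.9, 28.3 and 25.4 FPKM in AOC and 3.79, 3.12 and 1.99 FPKM in IEC12 (log2 fold change 2.79, SE 0.20, adjusted p = 3.99e-05). ITGA5, the fibronectin receptor chain, was at 15.2, 15.2 and 10.9 FPKM in AOC and 0.622, 0.996 and 1.11 FPKM in IEC12 (log2 fold change 2.94, SE 0.19, adjusted p = 2.56e-05), whereas its partner ITGB1 was at 293, 412 and 355 FPKM in AOC and 302, 247 and 237 in IEC12 (interval 0.05 to 0.80) and was not called. TIMP1, an inhibitor of matrix metalloproteinases, was not called, at 77.6, 74.9 and 76.5 FPKM in AOC and 58.4, 84.9 and 78.5 in IEC12 (interval -0.30 to 0.42, with the sign turned to -0.059 at equal totals and to -0.097 without IEC12 replicate A). MMP2, a gelatinase, was the member higher in IEC12, at 1.52, 2.06 and 1.59 FPKM in AOC and 4.36, 6.02 and 6.95 in IEC12 (log2 fold change -1.301, SE 0.19, adjusted p = 0.00103). LOXL2, a lysyl oxidase that links collagen chains, was at 22.5, 21.4 and 12.9 FPKM in AOC and 0.799, 1.43 and 2.002 in IEC12 (log2 fold change 3.04, adjusted p = 0.000126).

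**Figure D4:**
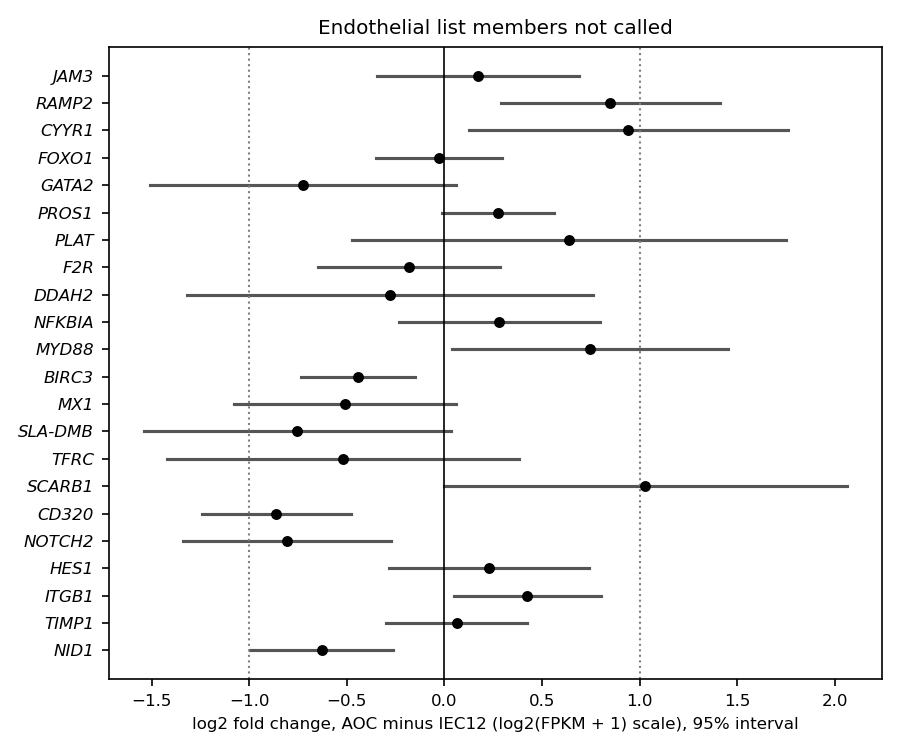
Log2 fold change (AOC minus IEC12, on log2(FPKM + 1)) with its 95% interval from limma for 22 members of the endothelial lists that were tested and not called, the members with the highest mean FPKM in each list. Dotted lines mark a log2 fold change of 1 in each direction, and the intervals of, among others, JAM3, FOXO1, PROS1, F2R, NFKBIA and TIMP1 lie between them.

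The genes that differed most among genes with a symbol were then read. GNG11, a gamma subunit of G proteins, led the AOC side, at 1707, 1834 and 1708 FPKM in AOC and 0.0520, 0.0301 and 0.267 in IEC12, with a log2 fold change of 10.62 and an SE of 0.12 (adjusted p = 1.03e-07). ANKRD1, a stretch-responsive ankyrin repeat protein and a known target of YAP, was at 1036, 1049 and 1099 FPKM in AOC and 0.336, 0.176 and 0.289 in IEC12, with a log2 fold change of 9.71 and an SE of 0.10 (adjusted p = 1.03e-07). It had been at 31.1, 53.7 and 165 FPKM at day 4. GASK1B was at 220.4, 239 and 193 FPKM in AOC and 0.0529, 0.177 and 0 FPKM in IEC12 (log2 fold change 7.66, SE 0.13, adjusted p = 3.41e-07). MT1X, a metallothionein that binds zinc and copper, was at 422, 389 and 408 FPKM in AOC and 0.997, 1.57 and 1.004 FPKM in IEC12 (log2 fold change 7.55, SE 0.13, adjusted p = 3.41e-07). CD86, a co-stimulatory ligand for T cells, was at 307, 278 and 323 FPKM in AOC and 1.61, 1.41 and 1.12 FPKM in IEC12 (log2 fold change 6.997, SE 0.12, adjusted p = 3.41e-07). LAPTM5, a lysosomal protein known from blood cells, was at 175, 187 and 130.0 FPKM in AOC and 0.237, 0.384 and 0.0609 FPKM in IEC12 (log2 fold change 7.06, SE 0.18, adjusted p = 1.06e-06), while PTPRC, the CD45 protein of all white blood cells, was listed at 0 in all AOC libraries. THBS1, CCL2, ECSCR and CLEC14A, given above, made up the 10.

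On the IEC12 side, DKK1, a secreted inhibitor of WNT signalling, led. It was listed at 0 in all AOC libraries and was at 682, 552 and 426 FPKM in IEC12 (adjusted p = 5.2e-07). It arose late, at 0.205, 0.168 and 0.0759 FPKM at day 2 and 11.4, 2.15 and 2.69 at day 4. GPM6A, a membrane glycoprotein of neurons, was listed at 0 in all AOC libraries and was at 489, 439 and 402 FPKM in IEC12 (adjusted p = 1.92e-07), and it had been at 200.4, 178 and 239.8 FPKM already at day 2. STMN2, a stathmin that regulates microtubules in growing neurites (chromosome 4, 56952968 to 57006744), was at 0.185, 0.343 and 0.466 FPKM in AOC and 375, 397 and 370.1 in IEC12, with a log2 fold change of -8.17 and an SE of 0.12 (adjusted p = 2.5e-07). PERP, a membrane protein of desmosomes, was at 0.101, 0.138 and 0.0784 FPKM in AOC and 223, 249 and 209 in IEC12, with a log2 fold change of -7.68 and an SE of 0.12 (adjusted p = 2.5e-07). OTX2, a homeobox factor of the epiblast and the forebrain, was listed at 0 in all AOC libraries and was at 140.2, 148 and 160.1 FPKM in IEC12 (adjusted p = 2.71e-07). BMP5, a bone morphogenetic protein, was likewise listed at 0 in AOC and was at 153, 127 and 98.1 FPKM in IEC12 (adjusted p = 1.06e-06).

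The other 4 of the 10 lie close together on the X chromosome. BEX4, BEX1, TCEAL9 and BEX3 lie in this order within chromosome X, from base 84147133 to 84302124 of Sscrofa11.1 by RefSeq, and belong to the family of brain-expressed X-linked and TCEAL genes. BEX3 was at 0.154, 0 and 0.150 FPKM in AOC and 501, 569 and 492 in IEC12 (log2 fold change -8.89, SE 0.12, adjusted p = 1.92e-07). BEX1 was at 1.20, 3.53 and 2.38 FPKM in AOC and 416, 405 and 317 FPKM in IEC12 (log2 fold change -6.87, SE 0.27, adjusted p = 3.9e-06), and BEX4 was at 0.907, 0.284 and 1.02 FPKM in AOC and 172, 159 and 125 FPKM in IEC12 (log2 fold change -6.48, SE 0.22, adjusted p = 2.47e-06). TCEAL9 was at 0.0853, 0.250 and 0.124 FPKM in AOC and 302, 285 and 249 FPKM in IEC12 (log2 fold change -7.92, SE 0.13, adjusted p = 2.71e-07). All 4 were thus at 3.53 FPKM or less in every AOC library and at 125 FPKM or more in every IEC12 library. They were not new at day 12, since BEX3 was at 308, 246 and 234 FPKM at day 2 and BEX1 at 87.7, 72.8 and 71.1. Genes nearby were not all alike. TCEAL1, at base 84518999 to 84521020, was at 4.89, 5.42 and 5.71 FPKM in AOC and 9.15, 11.2 and 9.55 in IEC12 and was not called (log2 fold change -0.79, adjusted p = 0.00237), and BEX5, at base 83607366 to 83609797, stayed under 1 FPKM in all 6 libraries. TCEAL1 and BEX5 were chosen as neighbours after the values of the others were seen.

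**Figure D5:**
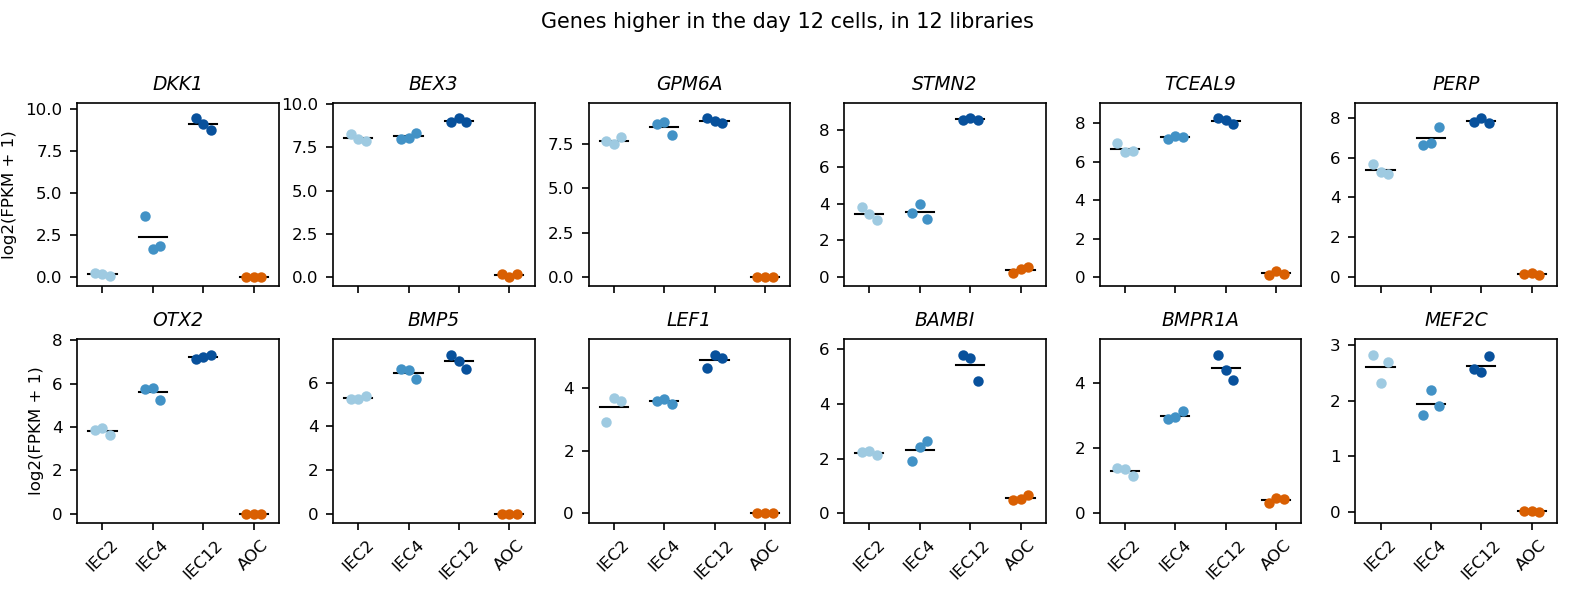
Level of 12 genes higher in IEC12, as log2(FPKM + 1), in each of the 12 libraries by group, with points for libraries and a bar for the mean of each group of 3. DKK1, STMN2 and BAMBI lie far above their day 4 level at day 12, MEF2C had a like level on day 2, and every AOC library lies below every IEC12 library.

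More WNT genes were called higher in IEC12 than in AOC. Of 40 listed, 37 were found and 21 tested, with 3 higher in AOC (14.3%), 13 higher in IEC12 (61.9%) and 5 not called (median -1.21). Of all genes tested, 15.7% and 20.4% were. Of the members found, 6 reached 1 FPKM in every AOC library and 18 in every IEC12 library. Members thus entered the test more often through IEC12, which raises the count on that side by itself. LEF1, a nuclear effector of the TCF/LEF family of the pathway, was at 0.00653, 0 and 0 FPKM in AOC and 23.9, 32.3 and 30.2 in IEC12, with a log2 fold change of -4.88 and an SE of 0.15 (adjusted p = 2.01e-06). TCF7L2, of the same family, was not called, at 0.567, 0.804 and 0.673 FPKM in AOC and 2.22, 2.196 and 2.45 in IEC12 (log2 fold change -0.97, adjusted p = 0.000285), and it was called higher in IEC12 with a pseudocount of 0.1 (-1.62), at equal totals (-1.04) and without AOC replicate B (-1.02). Among the frizzled receptors, FZD10 was listed at 0 in all AOC libraries and was at 6.59, 7.44 and 4.996 FPKM in IEC12, and FZD3 was at 0.954, 1.22 and 0.804 FPKM in AOC and 12.4, 10.9 and 11.6 in IEC12 (log2 fold change -2.67, SE 0.14, adjusted p = 1.17e-05). FZD4 and FZD6 were expressed in both groups and not called, at 18.7, 19.8 and 17.8 and 11.2, 20.7 and 14.2 FPKM in AOC and 38.6, 32.9 and 31.5 and 17.5, 21.4 and 20.9 in IEC12. Secreted antagonists were present on both sides. SFRP1 and SFRP2 were listed at 0 in all AOC libraries and were at 4.31, 4.001 and 3.92 and 1.73, 3.38 and 4.72 FPKM in IEC12, as DKK1 was. WIF1, which binds WNT ligands, was at 48.4, 53.6 and 51.2 FPKM in AOC and 0.104, 0 and 0.186 in IEC12 (log2 fold change 5.57, SE 0.13, adjusted p = 8.61e-07), and DKK3 was at 13.8, 14.6 and 12.3 FPKM in AOC and 0.353, 0.923 and 0.439 in IEC12 (log2 fold change 3.22, SE 0.18, adjusted p = 1.34e-05). So DKK1 and WIF1, both inhibitors of WNT ligands or their receptors, stood on opposite sides. The ligand WNT2B was at 2.79, 2.31 and 2.03 FPKM in AOC and 0.380, 0.472 and 0.333 in IEC12 (log2 fold change 1.27, adjusted p = 0.000142).

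BMP, TGF-beta and ID genes were divided. All 35 listed were found and 22 tested, with 9 higher in AOC, 8 higher in IEC12 and 5 not called (median -0.81). That is 40.9% and 36.4%, against 15.7% and 20.4% of all genes tested. BMP receptors lay on both sides, BMPR1A, ACVR1 and BMPR2 higher in IEC12 and ACVRL1 higher in AOC (BMPR2, SMAD6 and ACVRL1 belong to the preceding list of vascular signals). BMPR1A, a type I receptor, was at 0.234, 0.391 and 0.361 FPKM in AOC and 28.01, 20.004 and 15.96 in IEC12 (log2 fold change -4.04, SE 0.22, adjusted p = 1.22e-05). ACVR1, another type I receptor, was at 1.89, 2.35 and 2.10 FPKM in AOC and 42.0, 32.1 and 23.6 FPKM in IEC12 (log2 fold change -3.40, SE 0.22, adjusted p = 2.56e-05), and the type II receptor BMPR2 was at 4.27, 7.26 and 8.33 FPKM in AOC and 29.9, 19.6 and 15.6 in IEC12 (log2 fold change -1.57, SE 0.30, adjusted p = 0.00397). In these 3 the highest IEC12 library was replicate A. ACVRL1, the ALK1 receptor of endothelium, was the reverse, at 1.24, 1.83 and 1.59 FPKM in AOC and 0.0278, 0.00536 and 0.0654 in IEC12 (log2 fold change 1.299, SE 0.11, adjusted p = 8.72e-05).

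ID3, ID2, BAMBI and SMAD6 were higher in IEC12, of which ID3 was chosen after its values were seen. ID3, an inhibitor of bHLH factors, was high in both groups, at 643, 758 and 613 FPKM in AOC and 2716, 2678 and 2577 in IEC12 (log2 fold change -1.99, SE 0.11, adjusted p = 1.24e-05). ID2 was at 3.82, 3.64 and 4.02 FPKM in AOC and 38.4, 41.8 and 38.4 FPKM in IEC12 (log2 fold change -3.07, SE 0.11, adjusted p = 2.94e-06). BAMBI, a decoy receptor, was at 0.416, 0.424 and 0.596 FPKM in AOC and 54.3, 49.4 and 27.6 FPKM in IEC12 (log2 fold change -4.87, SE 0.26, adjusted p = 1.27e-05), and SMAD6, an inhibitory SMAD, was at 1.45, 1.83 and 1.49 FPKM in AOC and 4.56, 6.75 and 6.97 in IEC12 (log2 fold change -1.44, SE 0.18, adjusted p = 0.000539). The ligand BMP4, from the mesoderm list, was higher in AOC, at 39.9, 38.6 and 44.6 FPKM, than in IEC12, at 4.66, 4.71 and 5.40 (log2 fold change 2.83, SE 0.12, adjusted p = 5.01e-06). TGFB2, a TGF-beta ligand, was at 14.5, 12.6 and 12.6 FPKM in AOC and 0.680, 1.08 and 1.58 in IEC12 (log2 fold change 2.77, SE 0.19, adjusted p = 3.27e-05), and the type II receptor TGFBR2 was at 5.73, 8.19 and 8.10 FPKM in AOC and 2.15, 1.55 and 1.503 in IEC12 (log2 fold change 1.60, SE 0.18, adjusted p = 0.000347). The type I receptor TGFBR1 was not called, at 1.98, 3.40 and 3.30 FPKM in AOC and 7.69, 5.23 and 4.31 in IEC12 (log2 fold change -0.78, adjusted p = 0.0297). CCN2, the connective tissue growth factor, was at 227, 309.9 and 255 FPKM in AOC and 2.78, 2.84 and 3.22 in IEC12 (log2 fold change 6.06, SE 0.14, adjusted p = 8.42e-07). Its relative CCN1 was at 9.86, 13.2 and 13.3 FPKM in AOC and 1.11, 1.35 and 1.02 in IEC12 (log2 fold change 2.59, adjusted p = 2.37e-05), and LTBP2, of the latent TGF-beta binding proteins, was at 9.73, 12.2 and 9.66 FPKM in AOC and 0.753, 1.03 and 1.86 in IEC12 (log2 fold change 2.40, adjusted p = 0.000117).

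Neural genes were split between the groups, with STMN2 and NEFL on the IEC12 side. Of 36 listed, 32 were found and 15 tested, with 5 higher in AOC, 8 higher in IEC12 and 2 not called (median -1.28). That is 33.3% and 53.3%, against 15.7% and 20.4% of all genes tested. Of the 32 found, 7 reached 1 FPKM in every AOC library and 10 in every IEC12 library. In all AOC libraries 11 were listed at 0. Beside STMN2, MAP2, which binds microtubules in dendrites, was at 0, 0.0898 and 0.0148 FPKM in AOC and 9.76, 8.75 and 8.21 in IEC12 (log2 fold change -3.26, SE 0.12, adjusted p = 3.34e-06). NEFL, a neurofilament, and SYT1, the calcium sensor of synaptic vesicles, were listed at 0 in all AOC libraries and were at 7.96, 12.05 and 15.9 and 4.57, 4.35 and 4.20 FPKM in IEC12. SNAP25, which fuses synaptic vesicles, was listed at 0 in AOC and was at 2.57, 3.88 and 3.55 FPKM in IEC12, down from 55.5, 80.9 and 81.1 at day 2. Other defining genes of neurons were low. ELAVL3, ELAVL4 and SYP stayed under 1 FPKM in all 6 libraries, and TUBB3, the neuronal tubulin, was at 0, 0.229 and 0.0894 FPKM in IEC12 and higher in AOC, at 6.40, 9.55 and 6.98 (log2 fold change 2.95, SE 0.17, adjusted p = 1.77e-05). UCHL1, a ubiquitin hydrolase abundant in neurons, was at 873, 846 and 911 FPKM in AOC and 926, 889 and 871 in IEC12 (interval -0.23 to 0.17, with the sign turned to 0.14 after median-of-ratios scaling). Of the members higher in AOC, 3 more were under 5 FPKM in every library. The factor PAX6 was at 3.41, 3.41 and 3.67 FPKM in AOC and 0.242, 0.256 and 0.181 in IEC12 (log2 fold change 1.87, adjusted p = 1.1e-05), the factor NEUROG2 was at 3.87, 3.38 and 3.21 FPKM in AOC and 0.415, 0.961 and 0.887 in IEC12 (log2 fold change 1.37, adjusted p = 0.000398), and the adhesion molecule CADM1 was at 4.48, 4.78 and 4.23 FPKM in AOC and 0.0194, 0.0392 and 0.0124 in IEC12 (log2 fold change 2.42, adjusted p = 4.34e-06).

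Pluripotency genes were few. Of 25 listed, 15 were found (POU5F1 and SOX2 are not analysed here) and 3 tested, all of them higher in IEC12. Of the 15 found, 3 reached 1 FPKM in every IEC12 library and 0 in every AOC library. The 3 tested thus passed the filter through IEC12. The filter came close to fixing the direction of these 3, so nothing is read from it. Among these were OTX2, given above, and DNMT3B, a DNA methyltransferase, at 0.0235, 0.0843 and 0.0380 FPKM in AOC and 2.31, 3.32 and 3.30 in IEC12 (log2 fold change -1.91, SE 0.13, adjusted p = 3.5e-05). NANOG, a core factor of pluripotency, was at 0.248, 1.07 and 0.874 FPKM in IEC12 and LIN28A at 0, 0.159 and 0.647, both below the level needed for a test. OTX2 also acts in the embryonic brain.

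Among smooth muscle and fibroblast genes, matrix and mesenchyme genes divided. Of 37 listed, 34 were found and 19 tested, with 7 higher in AOC, 8 higher in IEC12 and 4 not called (median -0.49). That is 36.8% and 42.1%, against 15.7% and 20.4% of all genes tested. PRRX1, a homeobox factor of mesenchyme, was at 0.961, 1.29 and 1.21 FPKM in AOC and 22.1, 24.5 and 29.4 in IEC12 (log2 fold change -3.60, SE 0.16, adjusted p = 5.64e-06). FBN2, the fibrillin of embryonic matrix, was at 0.0101, 0 and 0.00488 FPKM in AOC and 22.8, 17.5 and 14.1 FPKM in IEC12 (log2 fold change -4.23, SE 0.19, adjusted p = 6.18e-06), and FBLN2, a fibulin, was at 0, 0 and 0.0289 FPKM in AOC and 10.6, 14.2 and 13.7 in IEC12 (log2 fold change -3.77, SE 0.15, adjusted p = 3.77e-06). COL3A1, a fibrillar collagen, was at 6.37, 5.82 and 4.49 FPKM in AOC and 75.9, 77.5 and 58.9 in IEC12 (log2 fold change -3.45, SE 0.17, adjusted p = 8.6e-06), while COL1A2 was the reverse, at 15.5, 13.2 and 13.1 FPKM in AOC and 0.975, 0.269 and 0.319 in IEC12 (log2 fold change 3.32, SE 0.21, adjusted p = 2.19e-05). Of the tropomyosins, TPM1, chosen after its values were seen, was at 369.7, 303 and 288 FPKM in AOC and 44.4, 50.8 and 46.7 in IEC12 (log2 fold change 2.73, SE 0.12, adjusted p = 6.39e-06), whereas TPM2 was at 0.788, 0.812 and 0.575 FPKM in AOC and 39.2, 84.7 and 88.5 in IEC12 (log2 fold change -5.29, SE 0.32, adjusted p = 1.89e-05). All 5 smooth muscle markers were under 1 FPKM in every IEC12 library, as were 3 of the 5 fibroblast markers. Of the fibroblast markers, 1 was called higher in IEC12 and 1 higher in AOC. In IEC12, ACTA2 was at 0.131, 0.0621 and 0.0688 FPKM, TAGLN at 0.159, 0.367 and 0.509 and COL1A1 at 0.0448, 0.0363 and 0.0976. AOC held some ACTA2, at 12.8, 5.03 and 4.65 FPKM (log2 fold change 2.84, SE 0.34, adjusted p = 0.000435). The lysyl oxidase LOX was at 105, 127 and 104 FPKM in AOC and 12.2, 11.3 and 10.5 in IEC12 (log2 fold change 3.19, adjusted p = 3.46e-06), and the calcium-binding S100A4 was at 3.22, 22.6 and 5.75 FPKM in AOC and 0.0626, 0.109 and 0 in IEC12 (log2 fold change 3.05, adjusted p = 0.00396).

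Epithelial, endoderm, heart and blood genes gave few members to test. Of 23 epithelial genes found, 6 were tested, with 2 higher in AOC, 3 higher in IEC12 and 1 not called. CLDN6, a claudin of embryonic epithelia, was at 2.16, 4.05 and 2.64 FPKM in AOC and 37.1, 67.4 and 70.5 in IEC12 (log2 fold change -3.88, SE 0.30, adjusted p = 5.37e-05), and the keratin KRT8 was at 0.0106, 0 and 0 FPKM in AOC and 3.64, 11.1 and 14.9 in IEC12 (log2 fold change -3.26, SE 0.43, adjusted p = 0.000714). Both had been higher at day 4, CLDN6 at 202, 216 and 612 FPKM and KRT8 at 300.4, 435 and 748. GATA3 was at 0.822, 0.631 and 0.666 FPKM in AOC and 7.66, 11.9 and 15.6 in IEC12 (log2 fold change -2.85, SE 0.25, adjusted p = 9.7e-05). The members higher in AOC were SPINT2, a protease inhibitor, at 17.0, 17.6 and 14.7 FPKM in AOC and 0.763, 0.570 and 0.509 in IEC12 (log2 fold change 3.43, adjusted p = 4.41e-06), and OCLN, the occludin of tight junctions, at 13.7, 14.3 and 14.04 FPKM in AOC and 3.12, 4.97 and 4.23 in IEC12 (log2 fold change 1.57, adjusted p = 0.000241). Of 19 endoderm genes found, 4 were tested, with 1 higher in AOC, 2 higher in IEC12 and 1 not called. APOA1 was higher in AOC, at 25.8, 38.9 and 24.8 FPKM, than in IEC12, at 0.0915, 0.190 and 0.164 (log2 fold change 4.72, SE 0.20, adjusted p = 4.98e-06), and APOE was higher in IEC12, at 0.0292, 0.0285 and 0.0283 FPKM in AOC and 2.97, 8.14 and 5.46 in IEC12 (log2 fold change -2.58, SE 0.29, adjusted p = 0.000312), as was VTN, vitronectin, listed at 0 in all AOC libraries and at 1.24, 1.26 and 1.40 FPKM in IEC12. Of 29 mesoderm and heart genes found, 6 were tested, with 2 higher in AOC, 1 higher in IEC12 and 3 not called. HAND2, a factor of heart and limb, was at 45.4, 36.8 and 33.8 FPKM in AOC and 2.69, 6.22 and 4.50 in IEC12 (log2 fold change 2.90, SE 0.26, adjusted p = 0.000117), and ISL1, a factor of heart progenitors and motor neurons, was listed at 0 in all AOC libraries and was at 3.51, 5.35 and 6.41 FPKM in IEC12. Of 22 blood genes found, 7 were tested, with 1 (LAPTM5) higher in AOC (2 without AOC replicate B, IEC12 replicate B or IEC12 replicate C, 2 under median-of-ratios scaling and 3 where the pseudocount was 0.1, SPI1 being called in each of these), 1 (PTPRC, at 1.33, 1.16 and 1.64 FPKM in IEC12) higher in IEC12 and 5 not called. KIT, the stem cell factor receptor, was at 30.4, 48.1 and 26.1 FPKM in AOC and 39.8, 55.9 and 68.4 in IEC12 (interval -1.32 to 0.02).

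HOX genes, which mark position along the body axis, were mostly higher in IEC12 or not called. Of 39 listed, 32 were found and 16 tested, with 1 higher in AOC, 8 higher in IEC12 and 7 not called (median -1.08). That is 6.25% and 50%, against 15.7% and 20.4% of all genes tested. HOXB13 was at 1.09, 0.515 and 0.981 FPKM in AOC and 10.4, 24.2 and 33.6 in IEC12 (log2 fold change -3.54, SE 0.41, adjusted p = 0.000349), with its lowest value in IEC12 replicate A. HOXD11 was at 1.86, 1.48 and 1.89 FPKM in AOC and 17.3, 22.9 and 22.7 FPKM in IEC12 (log2 fold change -2.995, SE 0.16, adjusted p = 1.23e-05), and HOXD8 was at 3.99, 2.07 and 2.93 FPKM in AOC and 30.2, 26.9 and 26.1 in IEC12 (log2 fold change -2.87, SE 0.20, adjusted p = 3.39e-05). HOXC8 was at 0.175, 0.188 and 0.119 FPKM in AOC and 5.86, 7.17 and 5.17 in IEC12 (log2 fold change -2.60, SE 0.14, adjusted p = 1.22e-05). The member higher in AOC was HOXB5, at 2.16, 1.44 and 2.08 FPKM and 0.184, 0.554 and 0.520 in IEC12 (log2 fold change 1.03, adjusted p = 0.00148), and its call was lost at equal totals (0.97) and without AOC replicate A, AOC replicate C or IEC12 replicate A (0.96, 0.98 and 0.90). HOXA10 and HOXB7 were expressed in both groups, at 7.13, 6.60 and 5.92 and 10.6, 11.01 and 9.83 FPKM in AOC and 6.54, 9.10 and 8.84 and 10.2, 15.5 and 16.8 in IEC12, and were not called.

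Imprinted and fetal growth genes were mixed. Of 25 listed, 18 were found and 9 tested, with 3 higher in AOC, 4 higher in IEC12 and 2 not called (median -0.91). That is 33.3% and 44.4%, against 15.7% and 20.4% of all genes tested. MEST was at 0.160, 0.176 and 0.208 FPKM in AOC and 10.1, 9.51 and 12.03 in IEC12 (log2 fold change -3.28, SE 0.13, adjusted p = 4.27e-06), and NDN, necdin, was listed at 0 in all AOC libraries and was at 6.22, 9.38 and 8.94 FPKM in IEC12. PEG10 was at 27.4, 26.6 and 19.7 FPKM in AOC and 81.1, 78.3 and 102.8 in IEC12 (log2 fold change -1.79, SE 0.17, adjusted p = 0.000149), and IGF2BP3, an RNA-binding protein of fetal tissue, was at 18.4, 24.4 and 19.9 FPKM in AOC and 52.9, 60.6 and 58.3 in IEC12 (log2 fold change -1.42, SE 0.13, adjusted p = 0.000143). PHLDA2, which is imprinted as well, was higher in AOC, at 3.61, 14.4 and 10.1 FPKM in AOC and 0.0733, 0.0847 and 0.0939 in IEC12 (log2 fold change 3.09, SE 0.42, adjusted p = 0.000785). On the AOC side, IGF2BP2, an RNA-binding protein, was at 7.996, 7.83 and 5.66 FPKM in AOC and 0.490, 0.507 and 0.474 in IEC12 (log2 fold change 2.44, adjusted p = 2.42e-05), and IGFBP6, a binding protein of insulin-like growth factors, was at 15.3, 19.3 and 17.0 FPKM in AOC and 2.52, 4.89 and 6.31 in IEC12 (log2 fold change 1.77, adjusted p = 0.00155).

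Cell division genes were called about as often as genes in general. All 32 of the 39 listed genes that were found were tested, with 5 higher in AOC (15.6%), 5 higher in IEC12 (15.6%) and 22 not called (median 0.10, or -0.022 at equal totals). The 4 members with the largest differences, all higher in AOC, control entry into the cycle. CCND1, the cyclin D1 that starts it, was at 81.5, 117 and 106 FPKM in AOC and 0.749, 1.63 and 1.69 in IEC12 (log2 fold change 5.45, SE 0.22, adjusted p = 4.4e-06). CDKN2A, an inhibitor of the kinases that cyclin D1 activates and also the source of ARF, was at 195, 238 and 169.6 FPKM in AOC and 1.82, 5.36 and 5.31 FPKM in IEC12 (log2 fold change 5.37, SE 0.34, adjusted p = 2.31e-05). CDKN2C and CDKN2B, inhibitors of the same kinases, were at 26.3, 29.8 and 35.0 and 21.5, 25.96 and 21.9 FPKM in AOC and 2.26, 2.91 and 1.86 and 2.89, 2.08 and 2.17 in IEC12. The 5 members higher in IEC12 were genes of DNA replication and mitosis, with changes close to the limit of 1 apart from TYMS. TYMS, the thymidylate synthase, was at 74.4, 84.0 and 61.8 FPKM in AOC and 154, 195 and 208 in IEC12 (log2 fold change -1.33, SE 0.16, adjusted p = 0.000479). MCM3, of the replicative helicase, was at 50.1, 43.8 and 38.1 FPKM in AOC and 62.7, 107 and 111 in IEC12 (log2 fold change -1.03, adjusted p = 0.00844). The mitotic genes BUB1B (log2 fold change -1.03, adjusted p = 0.00069), CENPF (log2 fold change -1.03, adjusted p = 0.00271) and KIF11 (log2 fold change -1.02, adjusted p = 0.0162) were the others. All of these calls but that of TYMS depended on the setting. After median-of-ratios scaling TYMS alone kept its call. Without IEC12 replicate A, CENPF (-0.88) and KIF11 (-0.98) lost theirs, and without IEC12 replicate C, BUB1B (-0.92), KIF11 (-0.999) and MCM3 (-0.89) did. Leaving out AOC replicate A ended the call of KIF11 (-0.70), AOC replicate B that of CENPF (-0.92), and AOC replicate C or IEC12 replicate B that of MCM3 (-0.94 and -0.92).

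The genes past the stricter limits were followed back through the induction, as a description without a test. Of the 233 higher in AOC, 125 were under 1 FPKM in every IEC12 library, and 59 (25.3%) were under 1 FPKM in every library of days 2, 4 and 12, where 2.69% of all genes tested were. CDH5 and CLEC14A were among the latter. Another 40 (17.2%) were at 1 FPKM or more in every day 4 library and under 1 in every day 12 library, as were 1.49% of all genes tested. The choice of these genes for a low level in IEC12 raises both shares by itself, so nothing is read from the contrast with all genes. LIPG, at 33.3, 39.3 and 66.8 FPKM at day 4, PLAU, at 40.6, 33.3 and 621, and THBS1, at 7.45, 6.67 and 70.1, were of this kind. EPAS1, a hypoxia-inducible factor of endothelium called by the wider rule (log2 fold change 2.97, SE 0.28, adjusted p = 0.000147), was at 6.47, 10.8 and 10.6 FPKM at day 2, 31.7, 21.9 and 13.5 at day 4, 0.0396, 0.0229 and 0.152 in IEC12 and 9.14, 9.89 and 4.32 in AOC. KDR passed through the induction early, at 2.45, 3.99 and 2.42 FPKM at day 2 and 0, 0.302 and 0.154 at day 4. In each of these 5 genes the mean at day 12 was the lowest of the 3 stages.

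Of the 250 genes higher in IEC12, 214 (85.6%) were at 1 FPKM or more in every day 2 library and 240 in every day 4 library, against 82.0% at day 2 and 87.5% at day 4 of all genes tested. In 98 of them (39.2%) every IEC12 library lay above every library of days 2 and 4, against 16.6% of all genes tested. STMN2, at 13.0, 9.68 and 7.67 FPKM at day 2 and 10.3, 15.1 and 8.15 at day 4, BAMBI, at 3.66, 3.82 and 3.42 and 2.78, 4.29 and 5.31, and BMPR1A, at 1.62, 1.58 and 1.22 and 6.38, 6.77 and 7.77, were among these. The genes were chosen for their level at day 12, which raises this share by itself. EPAS1 and the examples of these 2 paragraphs were chosen after their values were seen.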

How the data were processed

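RNA of 12 porcine libraries was amplified with SMART-Seq2 and sequenced. The submitters' processing notes name Bowtie2 2.2.3, TopHat2 2.0.12, Cufflinks 2.2.1 and the build susScr11. The authors deposited 1 value per gene and library, taken here to be FPKM from the column header that Cufflinks uses, the tools named and the values, since no header states the unit. Read counts are not in the tables used, so no counting interval can be given. Of 19681 gene IDs, 13998 were given a symbol through RefSeq of Sscrofa11.1, and list members without a match are not analysed here. A few members that the rule below would name are counted in their lists but not reported here.

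From these FPKM values, log2(FPKM + 1) of genes at 1 FPKM or more in at least 3 of the 6 AOC and IEC12 libraries was fitted with limma 3.58.1 in R 4.3.3 (empirical Bayes with a trend), and p-values were adjusted by Benjamini-Hochberg over all 9636 genes. Further work used Python 3.11.15 with pandas 2.3.3, and figures used matplotlib 3.10.9. The 95% intervals of single differences are limma's and are not adjusted. Median-of-ratios scaling and scaling to equal totals without mitochondrial genes, a pseudocount of 0.1, all genes unfiltered, all 12 libraries in the fit, a variance not tied to expression, a replicate block and each library left out were tried as alternatives.

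The gene lists and the comparison were chosen with earlier results of these data known, so their counts are descriptions. In each list the genes named are up to 4 in each direction with the largest change among called members whose groups do not overlap, and up to 3 members not called with the highest mean. Some of the latter are counted in their lists and not described. To these were added the endothelial markers PECAM1, CDH5, NOS3 and KDR, which the study measured in other ways, the 10 genes in each direction with the largest change among genes with a symbol (8119 of those tested) that passed the stricter limits and whose groups do not overlap, and 27 genes chosen after their values were seen, among them CAV1, TEK, CALCRL, SELP and ID3. COL1A1, DLL4, ETV2, LIN28A, NANOG, TAGLN and TIE1, also chosen after their values were seen, were too low for the test and are given as values. The fit was tested on simulated data of 9636 genes built from these libraries. With log2 changes of 1.5, 39 of 50 changed genes were called by the rule of adjusted p under 0.05 and log2 fold change above 1, and with log2 changes of 5, 43 of 50 passed the stricter limits. The simulated lower group had a mean log2(FPKM + 1) of at least 1, while many genes reported here were near 0 FPKM in 1 group. These rates therefore do not cover such genes.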

Additional observations from a re-analysis of the deposited data

How the results depend on the processing

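Of 207 named genes tested, 156 were called, and 147 of these kept their call under all 13 alternatives. The exceptions were BUB1B, CALCRL, CENPF, GBP2, HOXB5, KIF11, MCM3, PALMD and TNFAIP3, all of which lay close to the limit of 1. The count of genes past the stricter limits, 483, rose to 1253 (508 higher in AOC, 745 higher in IEC12) with a pseudocount of 0.1, which widens the fold changes of low genes by construction. It ran from 434 to 493 when 1 library was left out, and the count by the wider rule, 3479, ran from 3340 to 3562. Median-of-ratios scaling moved the share of the wider calls that were higher in AOC from 43.4% to 51.0% (1745 higher in AOC, 1679 higher in IEC12). Of the medians of the 21 lists, 15 moved without the expression filter, which adds low genes, and 10 with the pseudocount of 0.1, each by over 0.5 or across 0. By the same rule 2 medians moved after median-of-ratios scaling and 1 at equal totals. Without the filter that of the haemostasis genes was 2.29 and that of the VEGF, angiopoietin, Notch and ephrin genes 0.0048.

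The letters A, B and C pair no libraries by any label. Deviations from the group means correlated at -0.39 for A, 0.07 for B and -0.56 for C across genes. With the letter as a replicate block, 430 genes passed the stricter limits and 3426 the wider rule. Among the named genes, the block ended the call of CALCRL (log2 fold change 1.07, adjusted p = 0.0702 in limma) and of no other.

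Genes with a log2 fold change near 0 changed sign. After median-of-ratios scaling these were FBN1 (0.067), FOXO1 (0.12), GATA6 (0.067), HOXA2 (0.12), MAP1B (0.054) and UCHL1 (0.14), and at equal totals TIMP1 (-0.059). With 1 library left out, the range was -0.78 to 0.036 for DDAH2, -0.19 to 0.046 for FBN1, -0.10 to 0.067 for FOXO1, -0.11 to 0.079 for GATA6, -0.29 to 0.16 for HOXA2 and -0.10 to 0.17 for TIMP1. Without IEC12 replicate A it was 0.077 for HOXA2 and 0.079 for GATA6. The cause was not tested. Read numbers are unknown. Genes under 1 FPKM in every AOC and IEC12 library were left out of the main fit, while the unfiltered alternative fitted genes of this kind as well.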

Other observations

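Of the genes tested, 225 were listed at 0 in all 3 AOC libraries and 51 in all 3 IEC12 libraries. Genes that AOC expressed without being listed as endothelial included CDKN2A at 195, 238 and 169.6 FPKM, WIF1 at 48.4, 53.6 and 51.2 FPKM and APOA1 at 25.8, 38.9 and 24.8 FPKM, and none of the 3 passed 5.36 FPKM in any IEC12 library.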
